A study of Bos taurus with 46 samples.

Results

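Circulating miRNAs on Day 24 of pregnancy were set against those on Day 16 of the oestrous cycle, using every plasma library labelled P24 (11 libraries, 1 per pregnant heifer) and every one labelled NP16 (8 libraries, 1 per non-pregnant heifer), which together are 19 of the 46 small-RNA libraries of the study. On both of these days the ovary usually carries an active corpus luteum, so NP16 was taken as the cycle stage nearest to P24 in luteal state. No measure of luteal state in these heifers is given in the sources used here. The P24 animals were Holstein-Friesian heifers aged 14 to 17 months, synchronised with a progesterone insert, buserelin and cloprostenol, inseminated on Day 0 and again a day later, and found pregnant by ultrasound on Days 35 and 60. The NP16 animals had the same breed, age range, housing and synchronisation but were sham-inseminated. The same non-pregnant heifers also gave libraries on Days 0 and 8 of the cycle (NP0 and NP8), and the same pregnant heifers on Day 16 of pregnancy (P16). Because P24 and NP16 differ in both the day after oestrus and pregnancy, and are different animals, the contribution of pregnancy cannot be told apart from that of the day.

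MiRNAs are short RNAs that bind partly complementary sites in messenger RNAs and lower their stability or translation. In plasma they travel in vesicles and in protein or lipid complexes, and most of those found there are released by blood cells, with further contributions from vessel walls, liver, gut and other tissues. At this stage of bovine gestation the elongated conceptus has signalled its presence to the mother and has begun to attach to the uterine wall, and the corpus luteum is maintained. No placenta-specific miRNA cluster like that of primates is known in cattle.

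Blood was drawn into EDTA and spun hard enough to remove cells and platelets, RNA was extracted with TRIzol LS, and libraries were made with the TruSeq small-RNA kit. Each library held 6.51e+05 to 5.40e+06 miRNA reads in P24 and 1.49e+06 to 4.67e+06 in NP16, and miRNAs made up 67.6 ± 6.996% of mapped reads in P24 (SD, n = 11) and 70.9 ± 4.55% in NP16 (SD, n = 8). Levels are given as RPMM, the count of a miRNA scaled to the mapped reads of its library, as deposited. The 19 libraries correlated at 0.926 to 0.989 on log2(RPMM + 1) and none were identical. Of 870 miRNA names, 214 (209 bovine and 5 human) were tested, having reached 25 RPMM in 25% or more of libraries in any of the 5 groups. Of these, 198 met that limit in both P24 and NP16, 8 in P24 alone of the pair, and 8 in neither.

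No miRNA passed an FDR of 0.1 between P24 and NP16 (edgeR quasi-likelihood test on counts, TMM scaling, 0.0% of 214, smallest adjusted p = 0.157). An unadjusted p under 0.05 was reached by 18 miRNAs (8.41% of those tested), of which 9 had higher and 9 had lower levels in P24 (4.21% in each direction). The lower ones were led by miR-486, miR-451 and miR-144, which are made in developing red cells, together with miR-101 and miR-25. The higher ones included the neighbouring pair miR-130b and miR-301b, miR-30b-5p, miR-421 and the human-named miR-4532. All 9 lower and 6 of the 9 higher miRNAs met the filter in both groups. Of the other 3, miR-181d and the human-named miR-3168 reached 25 RPMM in 3 of 11 P24 libraries each, against 1 and 0 of 8 NP16 libraries, and miR-1271 was tested only because of its NP8 level. For none of the 214 miRNAs did the RPMM ranges of P24 and NP16 separate (0.0%).

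The count of calls depended on the tool and on single animals. DESeq2 called 5 miRNAs at the same limit (2.34%), namely miR-101, miR-144, miR-451 and miR-486 as lower and miR-4532 as higher, and limma-voom with quality weights called 7 (3.27%), with miR-25, miR-130b and miR-301b in and miR-486 out. Limma on log2(RPMM + 1) called 0, with 14 at an unadjusted p under 0.05, and exact permutation tests called 0, with 13. Both used RPMM without TMM, so they differ in scaling as well. In each, 159 of the 214 fold changes were positive, at a median of 0.131. With edgeR, leaving out a single library gave 0 calls in 15 of 19 cases, but 6 without NP16 animal 16, 8 without NP16 animal 35, 5 without P24 animal 24 and 3 without P24 animal 29. Scaling by library totals in place of TMM moved the median log2 fold change of all 214 miRNAs to 0.21, against 0.00. It also turned the split at an unadjusted p under 0.05 to 27 higher and 2 lower. Fold changes were positive for 184 of the 214 with library totals and for 109 with TMM. Mostly positive lists are therefore the rule with library totals. Directions of edgeR fold changes below are relative to the median miRNA unless both scalings are named. Levels, ranges and counts of libraries above or below a group value use RPMM without TMM. On that scale most miRNAs were higher in P24 (159 of the 214 with limma), so these counts are not relative to the median miRNA.

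**Figure D1:**
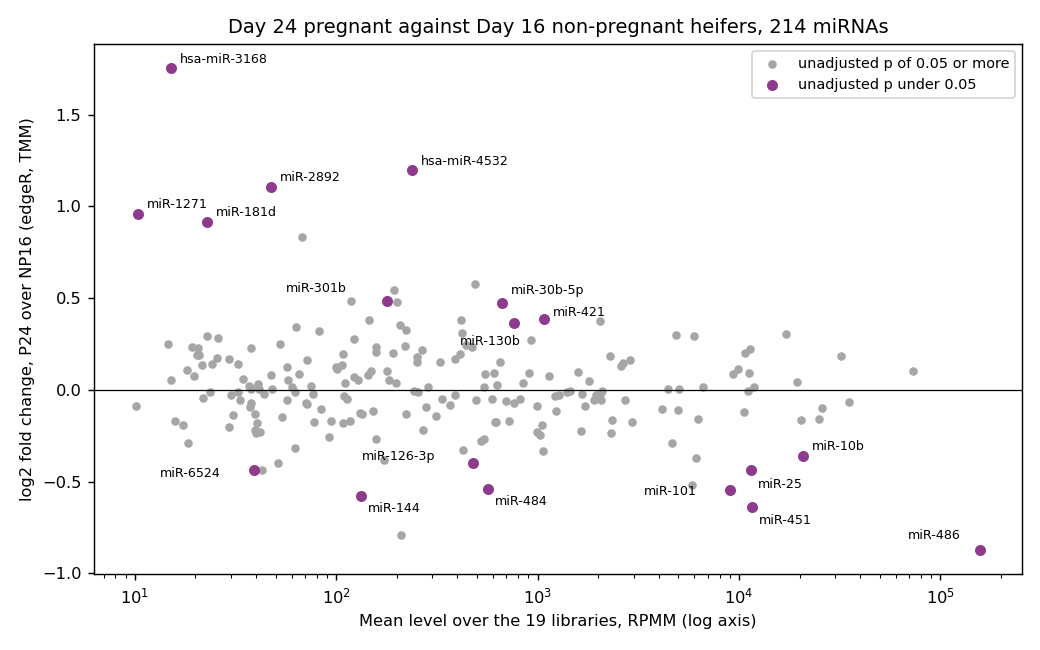
Mean level of each of the 214 miRNAs over the 19 libraries (RPMM, log axis) against its log2 fold change, P24 over NP16 (edgeR with TMM scaling). Coloured points are the 18 at an unadjusted p under 0.05, of which none passed an FDR of 0.1; miR-486, the most abundant, lies lowest at -0.87, and the points above 0.8 have low or moderate levels.

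miR-486 was the most abundant miRNA, with a mean of 18.7% of miRNA reads in P24 and 28.0% in NP16. In mouse and human it lies in an ankyrin gene and accumulates in red cells and muscle. Its level ran over 80489, 135566 and 156735 RPMM (lowest, median and highest of 11) in P24, and over 85841, 203406 and 359043 RPMM in NP16. All 11 P24 libraries lay below the NP16 median and 6 of the 8 NP16 libraries exceeded the P24 maximum, but the lowest 2 NP16 libraries fell among the P24 ones. Its log2 fold change was -0.87 ± 0.27 (SE, a fold of 0.546, edgeR adjusted p = 0.157).

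miR-451 and miR-144 come from one red-cell precursor locus that the erythroid factor GATA1 switches on in mouse and human. On UMD 3.1 they lie on the minus strand of chromosome 19 at 20147906 to 20147928 and 20148048 to 20148069, with 120 bases between them. miR-451 had 7069, 9823 and 14813 RPMM in P24 and 7954, 13404 and 20337 RPMM in NP16. Of the P24 libraries 10 were below the NP16 median, the exception being animal 24, while the overlap of the ranges was wide. This gave a log2 fold change of -0.64 ± 0.17 (SE, edgeR adjusted p = 0.157).

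miR-144 was far less abundant than miR-451, at 70.0, 108 and 174 RPMM in P24 and 93.2, 149 and 198 RPMM in NP16. Its log2 fold change of -0.58 ± 0.17 was close to that of its neighbour (edgeR adjusted p = 0.157). Of the P24 libraries 8 lay below the NP16 median and 3 above it. The miRNAs of this locus thus had similar fold changes at very different abundance.

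miR-101, known as a repressor of the histone methyltransferase EZH2, had 5466, 6855 and 13414 RPMM in P24 and 7586, 10591 and 14309 RPMM in NP16. Of the 11 P24 libraries 7 were below the lowest NP16 library, and 3 were above the NP16 median. For miR-101 the log2 fold change was -0.55 ± 0.16 (SE, edgeR adjusted p = 0.157).

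miR-25 belongs to the miR-106b, miR-93 and miR-25 locus on chromosome 25 (miR-25 at 38456026 to 38456047, plus strand), whose members restrain cell-cycle inhibitors. Its level was 7788, 10063 and 18408 RPMM in P24 and 9269, 12512 and 15995 RPMM in NP16. All P24 libraries but one were below the NP16 median, and animal 24 alone was above every NP16 library. miR-25 had a log2 fold change of -0.44 ± 0.14 (SE, edgeR adjusted p = 0.167). Its neighbours had smaller values that missed an unadjusted p of 0.05, at -0.28 ± 0.16 for miR-106b and -0.24 ± 0.16 for miR-93 (SE).

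**Figure D2:**
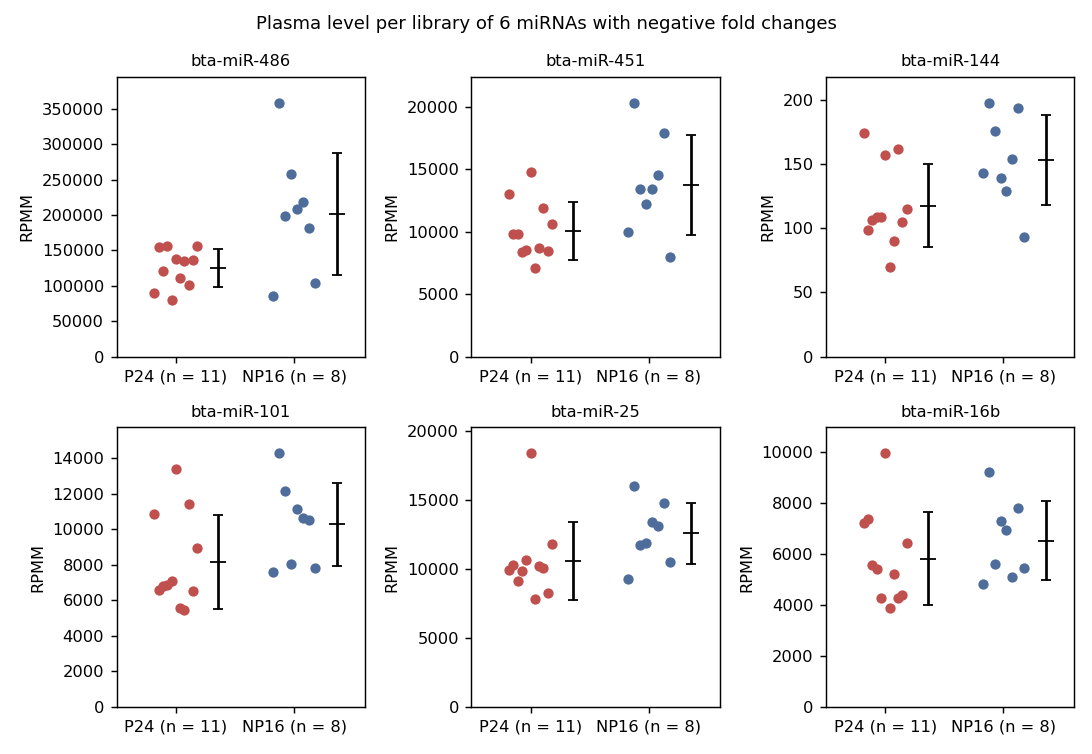
RPMM of miR-486, miR-451, miR-144, miR-101, miR-25 and miR-16b in each library (points), P24 on the left and NP16 on the right, with the mean and SD beside them (n = 11 and 8; every axis starts at 0). In each panel the groups overlap; for miR-486, 6 NP16 libraries lie above all P24 libraries, and the high P24 point for miR-25 at 18408 RPMM is animal 24.

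The erythrocyte list held miR-16a, miR-92a and miR-16b beside the miR-144, miR-451 and miR-486 described above. All 6 had negative fold changes, with a median of -0.47 against 0.00 over all 214 miRNAs, and 3 of the 6 had an unadjusted p under 0.05, beside 4.21% of all miRNAs in that direction. With library totals 4 of the 6 stayed negative and the median was -0.21. miR-16b, which acts on cell-cycle genes, came next at -0.37 ± 0.18 (SE), with 3863, 5393 and 9949 RPMM in P24 and 4798, 6267 and 9219.5 RPMM in NP16. miR-92a and miR-16a differed less, at medians of 26832 and 840 RPMM in P24 against 24616 and 953 RPMM in NP16. None of the 6 passed an FDR of 0.1 in edgeR, while DESeq2 called miR-451, miR-486 and miR-144.

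Summed, the erythrocyte list took 24.97 ± 5.13% of miRNA reads in P24 (SD, n = 11) and 34.53 ± 11.06% in NP16 (SD, n = 8; two-sided exact permutation test over 75582 splits, p = 0.0196, adjusted p = 0.0849 over 13 library measures). The P24 shares ran from 15.6 to 30.8% with a median of 26.4%, and the NP16 shares from 18.7 to 51.9% with a median of 35.3%. Of the NP16 libraries 6 were above the highest P24 library. To monitor haemolysis the study used the PCR difference between miR-451 and miR-23a. The log2 ratio of their sequencing RPMM, a different measure, was 2.22 ± 0.49 in P24 and 2.77 ± 0.67 in NP16 (exact permutation test, p = 0.0525, adjusted p = 0.171). Its adjusted p was under 0.1 in 3 of 19 cases with a library left out, at 0.0417 without P24 animal 24, 0.0580 without NP16 animal 16 and 0.0959 without NP16 animal 35 (range 0.0417 to 0.441). miR-23a itself had medians of 2245 RPMM in P24 and 2020 RPMM in NP16.

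The other groups place NP16 rather than P24 at the far end of this measure. The erythrocyte share averaged 26.5 ± 9.86% in P16 (SD, n = 10), 25.9 ± 13.8% in NP0 and 25.5 ± 11.7% in NP8 (SD, n = 8 each), each within 2 percentage points of the P24 mean and below that of NP16; these differences among groups were not tested. Among the NP16 libraries, animals 18 and 21 had the highest shares, up to 51.9%. Single high libraries were not particular to NP16. The highest shares were 51.2% in NP0, 46.1% in P16 and 43.01% in NP8, against 30.8% in P24. Without NP16 animals 18 and 21 the NP16 mean was 29.9 ± 7.97%. The difference from P24 then had an exact permutation p of 0.139 (adjusted p = 0.478). Leaving out any one of P24 animals 10, 12, 17, 26, 29 and 32 or NP16 animals 18, 20, 21, 22, 25 and 34 also took the adjusted p over 0.1 (12 of 19 cases, range 0.0229 to 0.224 over all 19). The plasma had been screened for haemolysis by absorbance and PCR before profiling, and none was judged haemolysed. The part of red cell release in these shares was not tested here.

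**Figure D3:**
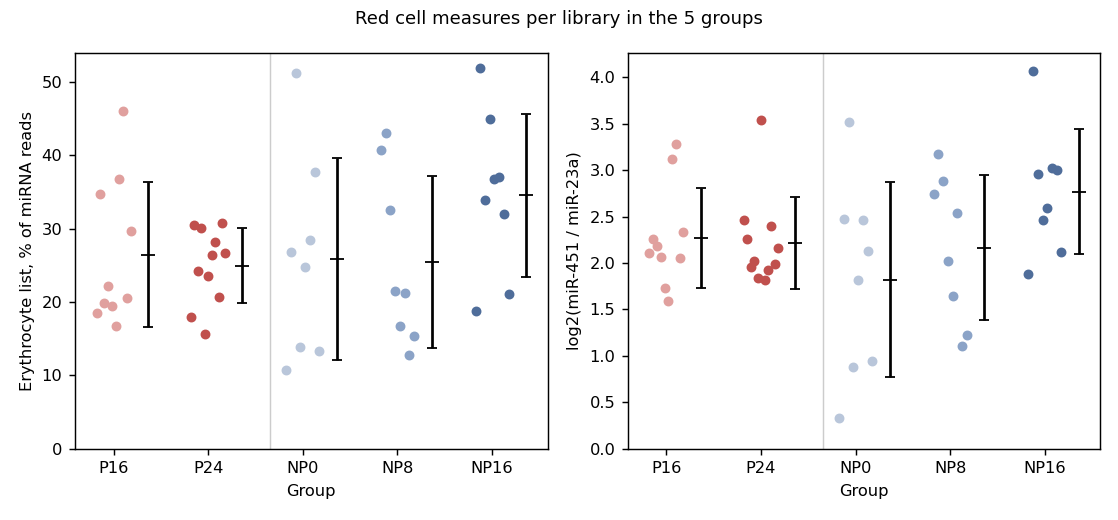
Share of miRNA reads taken by the 6 erythrocyte markers (left) and log2 ratio of miR-451 to miR-23a (right) in each library of P16, P24, NP0, NP8 and NP16, with mean and SD (n = 10, 11, 8, 8 and 8). The P24 shares lie between 15.6 and 30.8%; the NP16 libraries reach 51.9% and have the highest mean, 34.53%.

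When the erythrocyte share of each library was added to the edgeR model as a covariate, no miRNA passed an FDR of 0.1, and the unadjusted p was under 0.05 for 10 (2 lower and 8 higher). The covariate contains miR-486, miR-451 and miR-144 themselves, and miR-486 makes up most of it, so their values nearer 0 (-0.07, -0.29 and -0.39) are partly fixed by construction and are given as description only. Outside the list the log2 fold change was then -0.31 for miR-101 and -0.16 for miR-25. That of miR-484, a regulator of mitochondrial fission in mouse heart cells, was -0.54 without and 0.01 with the covariate. The higher miRNAs had values of 0.30 for miR-130b, 0.45 for miR-301b, 0.39 for miR-421, 0.33 for miR-30b-5p and 1.29 for miR-4532. Among the scarcer ones, miR-1271 was at 0.55 with the covariate and 0.96 without it, miR-181d at 0.65 and 0.92, miR-2892 at 1.35 and 1.11, and miR-3168 at 2.06 and 1.75. The highest miR-3168 library was P24 animal 24 at 136 RPMM, and leaving it out gave miR-3168 0.79 without the covariate. Without NP16 animals 18 and 21 the log2 fold change of miR-486 was -0.45 and that of miR-451 -0.43, and edgeR called none (smallest adjusted p = 0.784, 12 at an unadjusted p under 0.05).

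miR-10b, encoded in the HOXD cluster and linked to cell migration, had 14536, 17714 and 26273 RPMM in P24 and 19025, 22382 and 26945 RPMM in NP16. Of the P24 libraries 6 were below the lowest NP16 library, and the log2 fold change was -0.36 ± 0.13 (SE, edgeR adjusted p = 0.319). The endothelial and platelet miRNA miR-126-3p had 272, 407 and 645 RPMM in P24 and 335, 437 and 927 RPMM in NP16, with a log2 fold change of -0.40 ± 0.19 (SE, edgeR adjusted p = 0.559). miR-126-5p, the other arm of the same hairpin, gave -0.29 ± 0.19 (SE), so both arms had the same sign while the ranges overlapped for each.

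miR-484 and miR-6524 completed the lower set. miR-484 had 334, 503 and 708 RPMM in P24 and 398, 645 and 956 RPMM in NP16, with 4 NP16 libraries above every P24 library. miR-6524, for which no role is given here, stayed under 60 RPMM in every library and had a log2 fold change of -0.44 ± 0.18 (SE, edgeR adjusted p = 0.390).

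miR-130b and miR-301b share a seed and lie on the minus strand of chromosome 17, at 75467538 to 75467559 and 75467857 to 75467881, with 298 bases between them. Members of their family repress regulators of lipid storage and growth signalling in other species. miR-130b had 465, 832 and 1281 RPMM in P24 and 436, 611 and 829 RPMM in NP16. Of the 11 P24 libraries 10 were above the NP16 median and 6 were above the highest NP16 library. Its log2 fold change was 0.36 ± 0.12 (SE, a fold of 1.29, edgeR adjusted p = 0.167).

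miR-301b had 118, 221 and 285 RPMM in P24 and 91.6, 122 and 247 RPMM in NP16. Again 10 P24 libraries lay above the NP16 median, and the only NP16 library above the P24 median was animal 35. This gave a log2 fold change of 0.48 ± 0.17 (SE, edgeR adjusted p = 0.268), and of 0.62 without NP16 animal 35, where it passed an FDR of 0.1. Of the 4 tested members of the miR-130 and miR-301 family 3 had positive fold changes, with a median of 0.23 against 0.00 over all miRNAs. All 4 were positive with library totals, as were 184 of all 214 miRNAs.

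miR-30b-5p and miR-30d are encoded 4332 bases apart on chromosome 14 (plus strand, 6477882 to 6477903 and 6473527 to 6473550). The miR-30 family is broadly expressed and is known for restraining epithelial-to-mesenchymal change. miR-30b-5p had 354, 744 and 1401 RPMM in P24 and 242, 463 and 988 RPMM in NP16. There too 10 P24 libraries were above the NP16 median, and the log2 fold change was 0.47 ± 0.19 (SE, edgeR adjusted p = 0.390). miR-30d, among the 10 most abundant miRNAs, had 12354, 18829 and 31004 RPMM in P24 and 9249, 15094 and 17304 RPMM in NP16, with 6 P24 libraries above every NP16 library and a log2 fold change of 0.31 ± 0.15 (SE, edgeR adjusted p = 0.578). Over the family 4 of 6 members were positive, at a median of 0.20, and 5 of 6 with library totals (beside 184 of all 214).

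miR-421 is encoded next to miR-374b on the X chromosome (46943257 to 46943279, plus strand). It had 671, 1222 and 2029 RPMM in P24 and 672, 796 and 1168 RPMM in NP16, and 10 of 11 P24 libraries were above the NP16 median. For miR-421 the log2 fold change was 0.38 ± 0.16 (SE, edgeR adjusted p = 0.390). miR-374b, at medians of 55.5 RPMM in P24 and 41.97 RPMM in NP16, gave 0.25 ± 0.22 (SE).

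**Figure D4:**
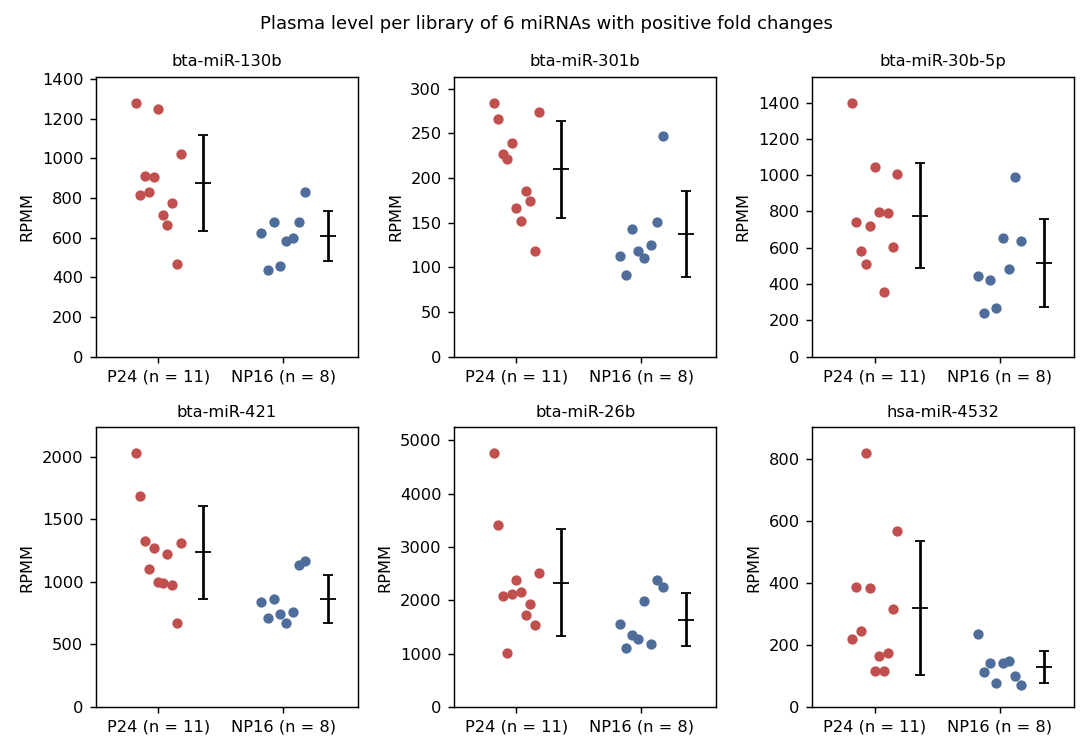
RPMM of miR-130b, miR-301b, miR-30b-5p, miR-421, miR-26b and miR-4532 in each library (points), P24 on the left and NP16 on the right, with the mean and SD beside them (n = 11 and 8; every axis starts at 0). Most P24 points lie above the NP16 median in each panel and the ranges overlap in all 6; the NP16 point at 247 RPMM for miR-301b is animal 35.

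The largest fold change among miRNAs with means over 100 RPMM in both groups was that of miR-4532, a name from the human miRBase set matched in the bovine reads. It had 116, 243 and 819 RPMM in P24 and 69.8, 127 and 236 RPMM in NP16. As many as 6 P24 libraries exceeded the highest NP16 library, with animal 14 the highest at 819 RPMM. Its log2 fold change was 1.20 ± 0.37 (SE, a fold of 2.29, edgeR adjusted p = 0.157), and 0.89 without P24 animal 14. The file places it at 17 bases of chromosome 10 (45748829 to 45748845), and whether these reads come from a bovine miRNA was not tested.

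Reads with human names made up 0.129 ± 0.0356% of miRNA reads in P24 and 0.0905 ± 0.0234% in NP16 (SD, n = 11 and 8; two-sided exact permutation test, p = 0.0105, adjusted p = 0.0831). Most of this difference was miR-4532 itself, at 0.0474% in P24 and 0.0183% in NP16, and the remaining human-named reads were 0.0817 ± 0.0134% in P24 and 0.0723 ± 0.0184% in NP16 (SD; exact permutation p = 0.213, a split chosen after seeing the data). Single libraries left out took the adjusted p over 0.1 in 8 of 19 cases (P24 animals 12, 17 and 32 and NP16 animals 18, 20, 21, 22 and 25, range 0.0229 to 0.193). As a share of the reads outside the erythrocyte list the difference had an exact permutation p of 0.0648 (adjusted p = 0.281). miR-2892, a bovine name, gave a log2 fold change of 1.11 ± 0.47 (SE, edgeR adjusted p = 0.403) with 11.6, 41.8 and 258 RPMM in P24 and 18.9, 26.0 and 36.9 RPMM in NP16. Its highest library was again P24 animal 14, without which the log2 fold change was 0.49. miR-1271 and miR-3168, the remaining low miRNAs at an unadjusted p under 0.05, had means under 25 RPMM in both groups.

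The 4 members of the miR-181 family, which act in lymphocyte development, all had positive fold changes, with a median of 0.41. With library totals 4 of 4 were positive too, beside 184 of all 214 miRNAs. miR-181d, the one at an unadjusted p under 0.05, had 9.99, 17.7 and 135 RPMM in P24 and 3.74, 13.1 and 26.3 RPMM in NP16, a log2 fold change of 0.92 ± 0.38 (SE, edgeR adjusted p = 0.390). Its neighbour miR-181c, 159 bases away on chromosome 7, gave 0.55 ± 0.28 (SE), and the pair on chromosome 11, miR-181b and miR-181a, gave 0.27 ± 0.18 and 0.20 ± 0.20 (SE). The highest library for all 4 was P24 animal 24, with 34000 RPMM of miR-181a where the next highest library had 13014 RPMM. Without that animal the log2 fold changes were 0.39 for miR-181d, 0.20 for miR-181c, 0.07 for miR-181b and -0.02 for miR-181a.

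P24 animal 24 stood apart in other measures too, though not all of these are separate from the miR-181 family. It had the highest share of leukocyte markers, 11.18% against a P24 median of 6.395%, but that list contains miR-181a and miR-155. Its miR-451 to miR-23a ratio was the highest of the group, 3.55 on the log2 scale. That animal also had the highest level of miR-155, which is induced in activated lymphocytes and macrophages, at 739 RPMM, beside 73.7 to 401 RPMM in the other P24 libraries. miR-155 gave a log2 fold change of 0.48 ± 0.28 (SE) with that animal and 0.21 without it. Its part in the other results was not tested beyond leaving it out.

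The other cell type lists had members of both signs. The platelet list took 7.98 ± 1.21% of miRNA reads in P24 and 6.33 ± 1.29% in NP16 (SD, n = 11 and 8; exact permutation test, p = 0.0128, adjusted p = 0.0831), but as a share of the reads outside the erythrocyte list it was 10.6 ± 1.61% in P24 and 9.66 ± 0.732% in NP16 (p = 0.123 by the exact permutation test). Leaving out P24 animal 10, 12, 17 or 32 or NP16 animal 18, 20, 21, 22 or 25 took its adjusted p over 0.1 as well (range 0.0286 to 0.193). Most of it was miR-191, at medians of 38246 RPMM in P24 and 26264 RPMM in NP16. Relative to the median miRNA 3 of the 7 platelet markers were positive (median -0.02), and 5 of 7 with library totals, where the median was 0.19. miR-21-5p, a growth-linked miRNA on that list, gave 0.22 ± 0.11 (SE, edgeR adjusted p = 0.564) with 8592, 10961 and 19909 RPMM in P24 and 6196, 9471 and 13298 RPMM in NP16.

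Leukocyte markers took 6.96 ± 1.58% of miRNA reads in P24 and 6.56 ± 1.78% in NP16 (SD; exact permutation test, p = 0.626). Of these 11 miRNAs 4 were positive at a median of -0.11, a sign that turned with library totals (8 of 11, 0.11). miR-150, typical of mature lymphocytes, had 2463, 4258 and 9944 RPMM in P24 and 2370, 6772 and 13654 RPMM in NP16 with a log2 fold change of -0.52 ± 0.28 (SE, edgeR adjusted p = 0.591). miR-146b, induced by inflammatory signalling, gave -0.44 ± 0.23 (SE), and -0.17 without NP16 animal 18.

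Liver and gut markers took 8.61 ± 2.42% in P24 and 7.57 ± 3.18% in NP16, epithelial markers 0.335 ± 0.0958% in P24 and 0.306 ± 0.127% in NP16, and vessel wall markers 2.23 ± 0.628% in P24 and 2.03 ± 0.764% in NP16 (SD; exact permutation p = 0.436, 0.584 and 0.545). The muscle list took 0.0289 ± 0.0444% in P24 and 0.0368 ± 0.0549% in NP16 (SD; exact permutation p = 0.674). Most of that was miR-133a, which ran over 27.3, 49.4 and 1150 RPMM in P24 and 23.7, 108 and 1179 RPMM in NP16, while the medians of miR-206 were 0 RPMM in both groups. P24 animal 24 and NP16 animal 25 held the high values. For miR-133a the log2 fold change was -0.79 ± 0.78 (SE), and 0.27 without NP16 animal 25.

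The miR-26 family holds growth-restraining miRNAs, of which the study followed miR-26a by PCR. On the same plasma the paper reported more miR-26a in pregnant than in non-pregnant heifers. The rise was significant on the earlier pregnant day but not on the later one. In a separate group of heifers, compared with their own levels before insemination, it was significant on the later day only. Neither PCR comparison used NP16 alone as its reference. In the sequencing libraries the family had positive fold changes for 3 of 3 members at a median of 0.30. With library totals 3 of 3 were positive too (median 0.45), beside 184 of all 214 miRNAs. miR-26a had 1955, 6632 and 13234 RPMM in P24 and 3260, 3948 and 8475 RPMM in NP16. Of the 11 P24 libraries 10 were above the NP16 median, yet the spread was wide and the log2 fold change of 0.30 ± 0.25 (SE) did not pass (edgeR unadjusted p = 0.255, adjusted p = 0.780). Without P24 animal 11 the log2 fold change was 0.10 for miR-26a, 0.27 for miR-26b and 0.07 for miR-26c, and the family median was 0.10.

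miR-26b had 1017, 2115 and 4767 RPMM in P24 and 1115, 1454 and 2376 RPMM in NP16, with a log2 fold change of 0.37 ± 0.19 (SE, edgeR adjusted p = 0.591). miR-26c, listed at the same position of chromosome 22 as miR-26a but on the opposite strand, gave 0.30 ± 0.27 (SE), and reads of these near-identical miRNAs may not have been told apart. Against NP8 the same family gave -0.28 ± 0.33, -0.09 ± 0.27 and -0.33 ± 0.35 (SE) for miR-26a, miR-26b and miR-26c. The sign of the family thus differed between NP16 and NP8 as the reference, but none of these values passed an unadjusted p of 0.05. Whether the day of the cycle accounts for the difference was not tested. miR-1249, also followed by PCR, was low, with medians of 5.79 RPMM in P24 and 4.57 RPMM in NP16.

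The study's PCR array, run on pools of plasma from the same animals, supplied a list of higher and a list of lower miRNAs. These lists are therefore not independent of these libraries. The array did not use NP16 alone as its reference, but the mean of the non-pregnant pools over all their sampled days. Its lists thus rest on a different contrast from the fold changes here, and the effect of the reference on their signs was not tested. Of the 9 tested miRNAs of its higher list 8 had positive fold changes here, at a median of 0.25 against 0.00 over all miRNAs, and 1 (miR-30b-5p) had an unadjusted p under 0.05, beside 4.21% of all miRNAs. The exception was miR-103 at -0.16 ± 0.12 (SE), which was 0.05 with library totals. Without NP16 animals 18 and 21 only 6 of the 9 were positive and the median was 0.10. Of the 5 miRNAs of its lower list 4 were negative, at a median of -0.12, and with library totals 1 of 5. That list held miR-101, described above, and miR-29c, an extracellular matrix regulator, at 0.15 ± 0.13 (SE).

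The family of miR-100, miR-99 and miR-125, found beside let-7 genes and active in haematopoietic stem cells in mouse, was negative in 5 of 5 members at a median of -0.27, and in 4 of 5 with library totals (-0.07). miR-99a-5p gave the largest of these, -0.38 ± 0.21 (SE), with 106, 154 and 304 RPMM in P24 and 112, 194 and 284 RPMM in NP16, and 10 P24 libraries below the NP16 median. miR-125a, miR-99b, miR-125b and miR-100 gave -0.33 ± 0.27, -0.27 ± 0.19, -0.27 ± 0.24 and -0.22 ± 0.22 (SE). No member passed an unadjusted p of 0.05. The let-7 family, by contrast, was positive in 6 of 9 members at a median of 0.05 (9 of 9 with library totals, beside 184 of all 214).

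No member of the lists tied to pregnancy or placenta had an unadjusted p under 0.05. Of the 12 tested members of the imprinted Dlk1-Dio3 cluster, whose human counterpart is expressed in placenta, 3 were positive with TMM and 11 with library totals, at medians of -0.05 and 0.17. Among 6 tested miRNAs reported for maternal blood of other species 3 were positive (median 0.07), including the ovine miR-30c at 0.31 ± 0.28 (SE). miR-141, a pregnancy-associated epithelial miRNA in humans, had 679, 1172 and 2078 RPMM in P24 and 606, 997 and 2597 RPMM in NP16, and the NP16 range enclosed that of P24. Of the 4 miRNAs listed for placental development 3 were tested, and 0 of 3 were positive with TMM and 2 with library totals, at medians of -0.11 and 0.08.

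The 18 miRNAs at an unadjusted p under 0.05 were chosen on P24 vs NP16, so smaller values are to be expected in another comparison. Against NP8, the other luteal-phase sample of the non-pregnant heifers, 17 of the 18 kept their sign and 2 had an unadjusted p under 0.05 (edgeR). The values named here were smaller in size for red-cell and other miRNAs alike. In P24 vs NP8, which shares the P24 libraries, miR-486 gave -0.21 ± 0.31, miR-451 -0.10 ± 0.20, miR-144 -0.15 ± 0.19, miR-101 -0.11 ± 0.18 and miR-25 -0.10 ± 0.15 (SE). miR-130b gave 0.13 ± 0.15, miR-301b 0.05 ± 0.22, miR-30b-5p 0.21 ± 0.23 and miR-421 0.12 ± 0.20, while miR-4532 gave 0.92 ± 0.39 (SE). In that comparison edgeR called 0 miRNAs at an FDR of 0.1 (0.0%), with 6 at an unadjusted p under 0.05 (2.8%).

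On the same day of both states, P16 vs NP16, uses the same 8 NP16 libraries. As these 18 miRNAs were chosen on those libraries, likeness between the comparisons is no independent support. miR-486 was at -0.62 ± 0.35, miR-451 at -0.46 ± 0.22, miR-101 at -0.45 ± 0.20, miR-25 at -0.40 ± 0.17, miR-130b at 0.31 ± 0.11, miR-301b at 0.45 ± 0.19 and miR-4532 at 1.002 ± 0.27 (SE). In proportion to their size, others lay further from their P24 vs NP16 values. These were miR-181d at 0.23 ± 0.26, miR-3168 at 0.77 ± 0.77, miR-2892 at 0.67 ± 0.29 and miR-126-3p at -0.16 ± 0.18 (SE). Again 0 passed an FDR of 0.1 in edgeR, with 15 at an unadjusted p under 0.05 (7.01%), and 6 when the P16 library that the study removed was kept. The direct comparison of the pregnant days, P24 vs P16, also called 0, with 3 at an unadjusted p under 0.05 (1.4%), and 0 of either kind with the animal as a block. The values that follow are from the fit without the block, which ignores that the heifers are the same. In it miR-486 was at -0.22, miR-451 at -0.15, miR-130b at 0.07, miR-301b at 0.04 and miR-4532 at 0.20. There miR-181d was at 0.71 (edgeR unadjusted p = 0.0448, adjusted p = 0.999), with P24 animal 24 its highest P24 library (135 RPMM).

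**Figure D5:**
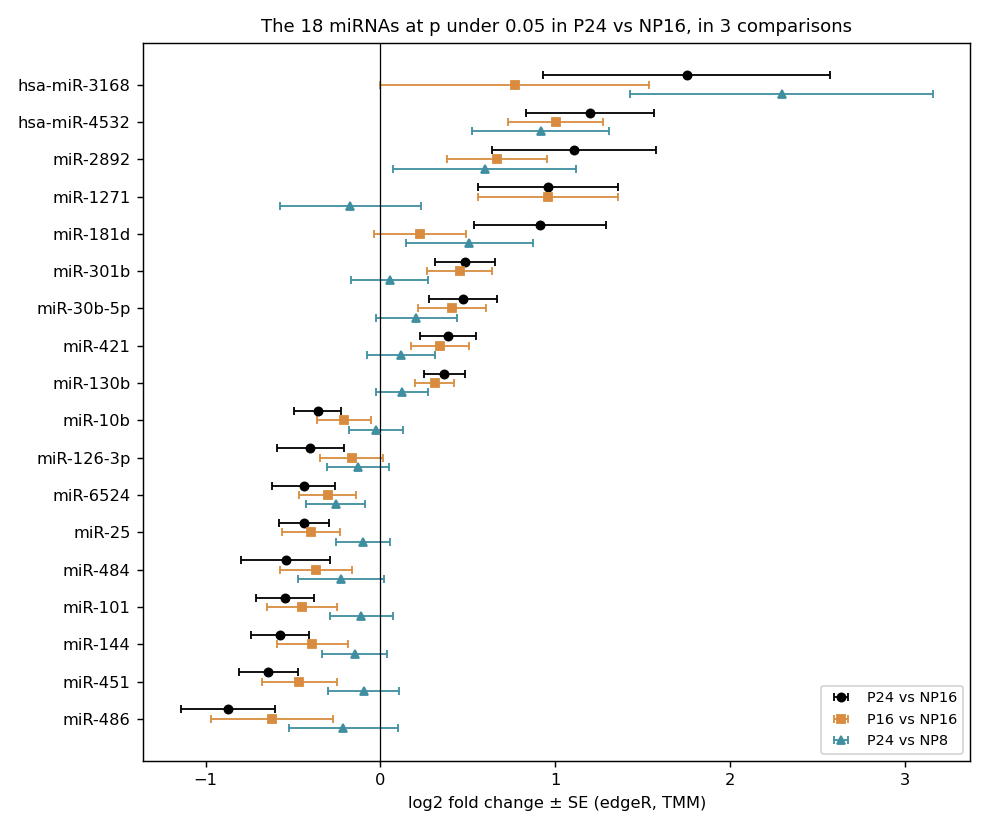
Log2 fold change with SE (edgeR with TMM scaling) of the 18 miRNAs at an unadjusted p under 0.05 in P24 vs NP16, shown for P24 vs NP16, P16 vs NP16 and P24 vs NP8; the comparisons share libraries. For miR-486, miR-451, miR-144, miR-101 and miR-25 the P24 vs NP8 points lie between -0.21 and -0.10, against -0.87 to -0.44 for P24 vs NP16.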

How the data were processed

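The authors trimmed and filtered 36-base single-end reads, used sRNAtoolbox to align them to UMD 3.1 (bovine), and assigned reads to mature miRBase miRNAs, mainly bovine but also human, with 1 mismatch allowed. Per miRNA name the table of deposited counts gives whole reads, and the deposited RPM values (scaled to the mapped reads of the library, RPMM here) were made from them by the authors. Group and animal come from the labels, and both groups have 1 library per animal. Members, lists and tests were chosen with earlier results of these data known.

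Counts were tested with edgeR 4.0.16 in R 4.3.3 (TMM, glmQLFit and glmQLFTest, Benjamini-Hochberg, FDR limit 0.1, 11 P24 against 8 NP16 libraries, no covariate). SE is the log2 fold change divided by the root of its F statistic. TMM fold changes need not equal ratios of RPMM. The filter removed a miRNA if, in each of the 5 groups, over 75% of libraries fell under 25 RPM. Alternatives used DESeq2 1.42.0, limma 3.58.1 on log2(RPM + 1) and log2(RPM + 0.1), voom weights, library totals, other filters, the erythrocyte share as a covariate, all 5 groups in one fit (45 libraries, without the P16 library that the study removed), exact permutation tests and each library left out. The 5-group fit had no animal block and so took repeated libraries of a heifer as independent. The 13 library measures were tested by two-sided exact permutation in Python 3.11.15 with numpy 2.4.6 and adjusted together. The edgeR step was tested on simulated counts.

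Named miRNAs were the 25 with the smallest p, the 10 most abundant, those in the study's tables of sequencing and array differences, miR-26a, miR-26b, miR-26c, miR-1249, miR-451 and miR-23a, and members of the lists. MiRNAs with both means under 25 RPM were named as low, with fold changes given for miR-1271 and miR-3168 alone. P16 and P24 libraries pair by animal label: the correlation of own-animal deviations ran from -0.19 to 0.84 (median 0.41), and 7 of 10 animals matched themselves best. Sequencing batches were not named in the sources used here.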

Additional observations from a re-analysis of the deposited data

Results flagged for a closer look

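Within the 8 NP16 libraries, 10 of 70 value sets held a library set apart from its nearest neighbour by more than Dixon's 95% limit. Chance gives this in about 1 in 20 sets of normally distributed values, and the RPMM values were not log-transformed here. The sets are not independent, because several share a library. NP16 animal 35 was high for miR-301b (246.9 RPMM) and miR-1271 (18.04 RPMM). NP16 animal 16 was high for miR-4532 (236.17 RPMM), miR-141 (2597.41 RPMM) and for the shares of miRNA reads of the liver and gut list (14.95%), the epithelium list (0.592%) and the endothelium and vessel wall list (3.806%). NP16 animal 25 was high for miR-133a (1179.41 RPMM) and so for the muscle list (0.1698% of miRNA reads). NP16 animal 18, with the highest erythrocyte share, was high for miR-146b (83.23 RPMM). The 11 P24 libraries were not screened in this way, so a lone P24 library, such as animal 24 for miR-181a, is not among these flags.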

How the results depend on the processing

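The count of miRNAs past an FDR of 0.1 between P24 and NP16 was 0 with library totals, DESeq2 size factors, a robust fit, both limma pseudocounts, exact permutation tests, every other filter, the 5-group fit and the covariate, but 5 with DESeq2 and 7 with voom weights, and ran from 0 to 8 with single libraries left out. At an unadjusted p under 0.05 the count was 18, against 29 with library totals, 51 with no filter and 10 with the covariate, and ran from 14 to 28 with single libraries left out (28 without P24 animal 24). Of the 13 library measures 3 passed an adjusted p of 0.1, and 0 to 4 did with single libraries left out. Chosen after seeing the data, leaving out NP16 animals 18 and 21 (the lowest TMM factors) gave 0 miRNA calls and 0 library measures, leaving out P24 animals 29 and 31 (the fewest reads) gave 4 and 1, and shares outside the erythrocyte list gave 0 measures. With library totals 75 of the 214 miRNAs turned from negative to positive, none of them at an unadjusted p under 0.05. Among those given values here, these were miR-193b (0.0342), miR-2957 (0.0056), miR-152 (0.0072), miR-107 (0.0317), miR-103 (0.0489), miR-339a (0.0486), miR-100 (0.0085), miR-93 (0.0228), miR-92a (0.062), miR-16a (0.0293), miR-141 (0.1123) and miR-23a (0.1825). With the covariate 47 of 214 signs turned, including miR-484 (0.0144), miR-92a (0.2069), miR-16a (0.0316) and miR-23a (0.0215). With limma at either pseudocount, as with the mean log2 values of the permutation tests, 52 turned, including miR-141 (0.1207, and 0.1209 at the pseudocount of 0.1) and miR-23a (0.1289). With voom weights 31 turned, including miR-141 (0.0689), miR-23a (0.1176) and miR-181a (-0.0106), and in the 5-group fit 17, including miR-23a (0.0161). Without NP16 animals 18 and 21, 28 turned, including let-7d (-0.0019), let-7f (-0.065), miR-92a (0.0171) and miR-23a (0.003). With single libraries left out the log2 fold change ran from -0.0221 (without P24 animal 24) to 0.2477 for miR-181a, from -0.2399 to 0.0003 for miR-92a, from -0.2281 to 0.0905 for miR-141 and from -0.0759 to 0.0761 for miR-23a. miR-133a ran from -1.749 without P24 animal 24 to 0.2662, positive without NP16 animal 25. Beyond the construction of each alternative, the cause was not tested. No paired analysis was possible because P24 and NP16 are different animals; in P24 vs P16 the count was 0 both with and without the animal as a replicate block. Depth was lowest in P24 animal 31 (6.51e+05 miRNA reads), which limits miRNAs near 25 RPMM most.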
